A study of Danio rerio with 12 samples.

Results

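The comparison is of whole zebrafish larvae that lack both yap and taz with wild-type larvae of the same age, and it covers 8 of the 12 libraries of the study. Larvae of genotype yap-/-;taz-/- (4 libraries, called yap taz mutants here) were set against WT larvae (4 libraries), both at 3 days post-fertilization. The other 4 libraries came from yap-/- larvae of that age, called yap mutants here, and were used to estimate the spread and for 1 direct test. PolyA RNA was extracted from larvae and sequenced on an Illumina instrument. The sources used here do not give the kind of mutation, the strain, how many larvae went into a library or whether mutants were siblings of the WT larvae. The p-values therefore reflect the library-to-library spread alone, which may be technical. Levels are CPM, counts scaled to the same library total. A gene counts as called when its Benjamini-Hochberg adjusted p from edgeR's quasi-likelihood test over all genes was under 0.05. Fold changes are log2 of yap taz mutant over WT, ± SE.

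Yap and Taz (the product of wwtr1) are transcriptional co-activators that the Hippo kinase cascade keeps out of the nucleus. In the nucleus they bind TEAD factors and switch on genes of growth, of the cytoskeleton and of the extracellular matrix, and they also respond to tension on the cell. In zebrafish they are known for roles in the body axis, the retinal pigment epithelium, the epidermis and fin, the vessels and the liver, and the study's title concerns glucose use and nucleotide synthesis in organ growth.

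The libraries held between 7028251 and 7998635 counts in yap taz mutants and between 7763917 and 8657381 in WT. The 13 protein genes of the mitochondrial genome took 2.55 to 2.70% of counts in yap taz mutants and 3.23 to 3.98% in WT. The first principal component, with 44.7% of the variance, placed all 4 yap taz mutant libraries apart from all 4 WT libraries. Summed markers of whole larvae were abundant: skeletal muscle genes reached 95939 to 129563 CPM in yap taz mutant libraries, against 82168 to 94759 CPM in WT libraries, and lens genes 7039 to 9028 CPM in yap taz mutant libraries, against 9738 to 14087 CPM in WT libraries. In such bulk libraries fewer cells of a type and less RNA per cell cannot be told apart, and this holds for every cell type list described here.

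Of the 25473 genes in the table, 19493 had enough counts to be tested. Of these, 5391 (27.7%) were called between yap taz mutants and WT, 2701 higher (13.9%) and 2690 lower (13.8%). The median log2 fold change over all genes tested was 0.01, a value that the TMM scaling centres near 0. The split depended on the processing, with 2496 higher and 2976 lower under upper-quartile scaling and 2447 higher and 2958 lower with all genes kept. Among called genes, 724 were at least 2-fold higher and 584 at least 2-fold lower, and 144 and 102 passed 4-fold. A test against a minimum change of 1.5-fold called 999 genes, 591 higher and 408 lower. In 28.9% of all genes tested the 4 yap taz mutant values did not overlap the 4 WT values.

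**Figure D1:**
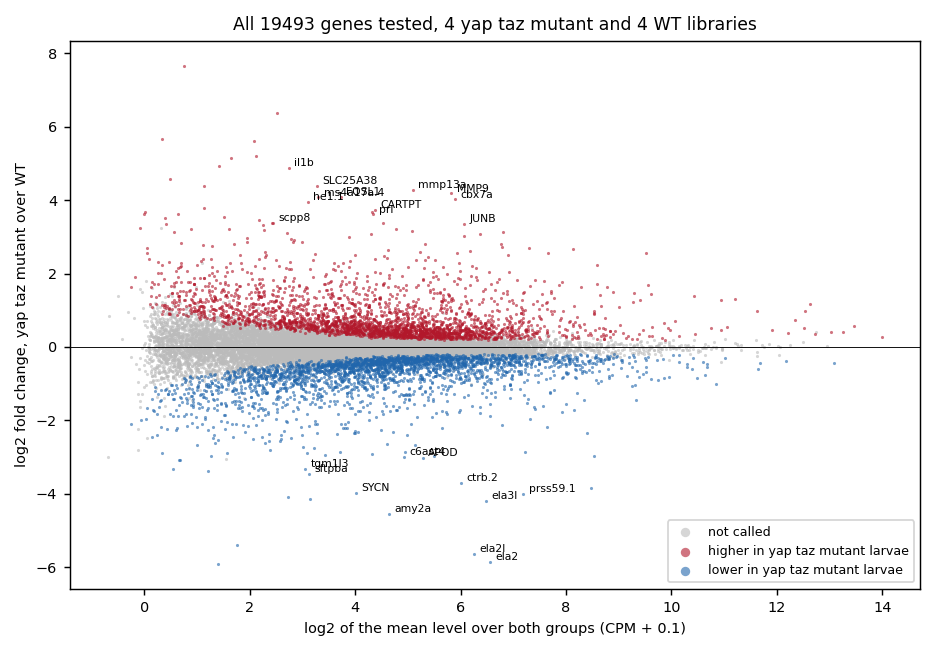
Log2 fold change of yap taz mutant over WT (vertical axis) against the log2 mean level over both groups in CPM (horizontal axis), 1 point per gene tested. Red points are the 2701 genes called higher, blue points the 2690 called lower, and the named points are among the 12 largest changes in each direction of better expressed genes.

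The targeted genes themselves were only modestly changed. YAP1 (ENSDARG00000068401), which encodes Yap, had 64.6, 73.1, 69.2 and 72.6 CPM in the yap taz mutant libraries, against 89.3, 88.3, 78.3 and 97.8 CPM in the WT libraries. All 4 mutant values lay below all 4 WT values, and the log2 fold change was -0.34 ± 0.09 (adjusted p = 0.0126). WWTR1 (ENSDARG00000067719), which encodes Taz, had 4.48, 5.39, 5.77 and 6.61 CPM in the yap taz mutant libraries, against 8.34, 5.40, 7.86 and 6.51 CPM in the WT libraries. Those groups overlapped, and the log2 fold change of -0.35 ± 0.17 was not called (adjusted p = 0.156). Against the yap mutants, whose mean was 10.4 CPM, WWTR1 was lower by a log2 fold change of -0.90 ± 0.17 (adjusted p = 0.00673). Transcript counts of a mutated gene do not show whether its protein is made, so they give only a partial check of the genotypes.

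The genes with the largest rises encode an inflammatory cytokine, matrix-degrading enzymes, AP-1 factors, a hatching enzyme and a pituitary hormone. il1b, which encodes the cytokine interleukin 1 beta, had 12.7, 14.7, 7.39 and 16.1 CPM in the yap taz mutant libraries, against 0.779, 0.395, 0.125 and 0.337 CPM in the WT libraries. It was near the detection floor in WT and above it in every mutant library (adjusted p = 6.81e-06), and no fold is given against so low a level. At that WT level il1b could pass the count filter only through mutant libraries, so it was tested only because it was high there. MMP9, a gelatinase of wounds and leukocytes, had 97.9, 128, 59.4 and 144 CPM in yap taz mutants, against 4.56, 6.32, 5.74 and 6.96 CPM in WT, and the collagenase mmp13a had 62.3, 87.4, 25.9 and 84.0 CPM in yap taz mutants, against 3.23, 3.16, 4.24 and 2.81 CPM in WT. Mutant replicate 3 was the lowest of the 4 mutants for both proteases, yet it remained above every WT library (log2 fold changes 4.19 ± 0.42 and 4.27 ± 0.41). cbx7a, a Polycomb chromobox gene, had 106, 140.4, 91.1 and 111 CPM in yap taz mutants, against 4.56, 9.08, 8.35 and 5.84 CPM in WT and a log2 fold change of 4.02 ± 0.25 (adjusted p = 2.73e-08). Also among the 12 largest rises were SLC25A38 (ENSDARG00000059805), a mitochondrial glycine carrier in other species, at 4.39, FOSL1 at 4.09 and JUNB (ENSDARG00000074378) at 3.35, both AP-1 factors, the four-helix membrane gene ms4a17a.4 at 4.08, scpp8, of the secretory calcium-binding phosphoproteins, at 3.37, and CARTPT (ENSDARG00000035852), a neuropeptide gene, at 3.74.

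The largest falls were in digestive enzymes of the exocrine pancreas, the acinar tissue that secretes proteases, amylase and elastases into the gut. Of the 12 largest falls, 9 are in the list of its genes, and the other 3 were sftpba, APOD (ENSDARG00000060350) and tgm1l3. ela2, an elastase, had 2.66, 1.97, 3.25 and 4.86 CPM in the yap taz mutant libraries, against 80.4, 362, 221 and 80.1 CPM in the WT libraries. The closely similar ela2l had 1.94, 3.02, 5.47 and 1.75 CPM in yap taz mutants, against 48.9, 297, 203 and 51.3 CPM in WT, and the amylase gene amy2a had 1.09, 1.97, 1.77 and 3.24 CPM in yap taz mutants, against 23.5, 71.6, 68.2 and 27.7 CPM in WT. All mutant values of these 3 genes lay below all WT values, but the WT libraries themselves differed several-fold: WT replicates 2 and 3 were high and WT replicates 1 and 4 low. Log2 fold changes were -5.86 ± 0.76 for ela2, -5.64 ± 0.72 for ela2l and -4.56 ± 0.68 for amy2a (adjusted p = 3.64e-05, 3.16e-05 and 0.000121). In the list of 32 tested pancreatic genes, 26 were lower and 1 was higher, with a median of -2.40, and 23 were called past 1.5-fold. Among all genes tested, 13.8% were called lower. Further members among the largest falls were the proteases ela3l (-4.20), prss59.1 (-4.00), ctrb.2 (-3.69) and c6ast4 (-2.99), and syncollin, SYCN (ENSDARG00000103687), of the secretory granule (-3.98). The summed level of the list was 657 to 969.8 CPM in yap taz mutant libraries, against 1771 to 6369 CPM in WT libraries. Elastases and trypsin-like genes of near-identical sequence may share reads, so their separate values are uncertain.

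Gut genes were mostly lower too, while liver genes changed in both directions. Of 53 tested enterocyte genes, 34 were lower and 3 higher (median -0.92). ANPEP (ENSDARG00000097285), a brush-border aminopeptidase, had 2.18, 2.23, 1.77 and 2.02 CPM in yap taz mutants, against 7.79, 7.11, 7.36 and 7.64 CPM in WT, with a log2 fold change of -1.85 ± 0.16 (adjusted p = 6.8e-07). The peptidase gene dpp4 (-1.60) and MOGAT2, which rebuilds triglyceride from absorbed fat (-1.78), also fell without overlap between the groups. The 3 enterocyte genes that rose were DAB2, an endocytic adaptor (0.75), alpi.1, an alkaline phosphatase (0.75), and creb3l3b, a transcription factor (1.21). Summed over the list, levels were 4684 to 5895 CPM in yap taz mutant libraries, against 5818 to 7964 CPM in WT libraries, and these ranges overlap.

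Liver genes split: 20 of 63 tested hepatocyte genes were higher and 20 lower (median -0.06), both shares above those of all genes. The 3 fibrinogen chains rose together. FGB had 504, 638, 564 and 657 CPM in yap taz mutants, against 191, 169, 179 and 175 CPM in WT, and its log2 fold change was 1.73 ± 0.10 (adjusted p = 2.04e-08), beside 1.62 for fga and 1.64 for FGG. RBP4, the retinol carrier that the liver secretes, had 306, 391, 534 and 351 CPM in yap taz mutants, against 706, 898, 919 and 794 CPM in WT and fell by a log2 fold change of -1.07 ± 0.16 (adjusted p = 0.000113). CYP7A1, the rate-limiting enzyme of bile acid synthesis (-2.41), and the liver fatty acid binding protein gene fabp10a (-1.22) were lower too. Lipoprotein genes were more often lower, with 5 of 28 higher and 10 lower (median -0.20). The members named here are among those that rose: apobb.1, an apolipoprotein B gene, averaged 4155 ± 470.5 CPM in yap taz mutants and 2126 ± 386 CPM in WT (SD, n = 4 each), and LCAT, which esterifies cholesterol on lipoprotein particles, had a log2 fold change of 1.54 ± 0.19.

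**Figure D2:**
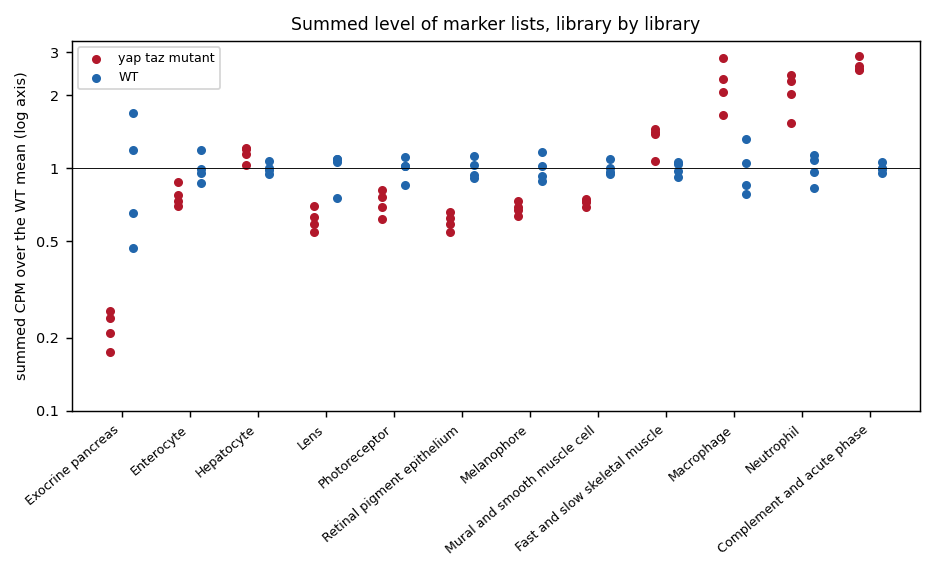
Summed CPM of the tested genes in 12 lists, divided by the WT mean of that list (vertical log axis), 1 point per library, with yap taz mutants in red to the left of WT in blue. The exocrine pancreas sum lay at 0.175 to 0.258 of the WT mean in mutants and 0.470 to 1.69 among WT libraries, while the complement and acute phase sum lay at 2.53 to 2.91 in mutants.

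In the eye, 31 of 52 lens genes and 15 of 27 pigment epithelium genes were lower, beside 30 of 76 photoreceptor genes. Of 52 tested lens genes 31 were lower and 3 higher (median -0.70). MIP (ENSDARG00000037285), the water channel of lens fibres, had 61.4, 39.7, 63.3 and 62.2 CPM in yap taz mutants, against 124, 153, 153 and 152 CPM in WT. Every mutant library was under every WT library, and the log2 fold change was -1.36 ± 0.12 (adjusted p = 9.17e-07). The crystallin genes crygm2d11 (-1.52) and crygm2d6 (-1.16) fell as well, although crystallins of this cluster are close copies and may share reads. Running against the list, BFSP2, a beaded filament gene (0.45), the crystallin gene crygm5 (0.66) and lim2.2, a fibre membrane gene (1.71), were higher. The call of BFSP2 was lost without yap taz mutant replicate 2, 3 or 4 or WT replicate 1 or 3 (adjusted p up to 0.101) and that of crygm5 without yap taz mutant replicate 2 or 4 or WT replicate 1 or 3 (adjusted p up to 0.0827).

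Photoreceptor genes fell in 30 of 76 tested cases and rose in 4, and 42 were not called (median -0.27). GNAT1, the rod transducin, had 37.6, 36.7, 43.3 and 32.4 CPM in yap taz mutants, against 106, 104.9, 104.7 and 68.5 CPM in WT, a log2 fold change of -1.36 ± 0.13 (adjusted p = 2.31e-06). PDE6B (ENSDARG00000000380), the rod phosphodiesterase, had 6.41, 6.57, 5.03 and 6.21 CPM in yap taz mutants, against 18.02, 18.03, 17.3 and 13.8 CPM in WT, a log2 fold change of -1.46 ± 0.15. WT replicate 4 was the lowest WT library for both rod genes and still above all mutants. The 4 genes that rose were CRX, the photoreceptor transcription factor (0.63), CNGA3 (ENSDARG00000012297), a cone channel subunit (0.95), rbp4l, a retinol binding protein gene (1.08), and the matrix gene impg2b (0.62). With the 8 libraries fitted alone, 7 photoreceptor genes were higher.

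The retinal pigment epithelium, the pigmented layer that recycles retinal for photoreceptors, had 15 of 27 tested genes lower and 1 higher (median -0.69). RPE65 (ENSDARG00000007480), its retinoid isomerase, had 5.81, 5.26, 8.72 and 7.02 CPM in yap taz mutants, against 46.8, 45.7, 32.2 and 41.3 CPM in WT, and fell by a log2 fold change of -2.64 ± 0.20 (adjusted p = 1.54e-07). The retinal-binding gene rlbp1b had a log2 fold change of -2.50 ± 0.30. pmelb, a melanosome matrix gene, had 3.15, 2.23, 2.07 and 1.89 CPM in yap taz mutants, against 14.3, 18.4, 14.8 and 16.3 CPM in WT, and its log2 fold change was -2.75 ± 0.24. mertka, a phagocytosis receptor, was the gene of the list that rose (0.87). Pigment genes shared with body melanophores moved the same way, with 9 of 20 melanophore genes lower and 0 higher. Those included DCT (-1.16) and TYRP1 (ENSDARG00000056151) (-0.87), enzymes of melanin synthesis, so part of both counts comes from the same genes. Among xanthophore and iridophore genes 10 of 30 were lower (33.3%, beside 13.8% of all genes) and 3 higher (10%, beside 13.9%). A purine enzyme gene of iridophores, pnp4a, was among those that fell (-1.70). The summed level of this list did not fall, at 1373 to 1594 CPM in yap taz mutant libraries, against 1108 to 1418 CPM in WT libraries.

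Most cell division genes were lower. Of 53 tested mitosis genes, 51 were lower and 0 higher, with a median of -0.67, and 5 were called past 1.5-fold. CCNB1, mitotic cyclin B, had 28.4, 26.5, 24.4 and 28.9 CPM in yap taz mutants, against 55.8, 52.5, 49.6 and 47.7 CPM in WT, with a log2 fold change of -0.92 ± 0.11 (adjusted p = 1.05e-05). FOXM1, a transcription factor of mitotic genes, averaged 8.61 ± 0.920 CPM in yap taz mutants and 18.6 ± 1.02 CPM in WT (SD, n = 4 each). In the DNA replication list 35 of 47 were lower and 0 higher (median -0.55). The helicase subunit gene MCM2 had 45.9, 51.0, 52.8 and 50.8 CPM in yap taz mutants, against 97.4, 88.6, 94.3 and 92.9 CPM in WT (log2 fold change -0.90 ± 0.11, adjusted p = 2.08e-05). DNA repair followed with 12 of 30 lower, a count that was 6 without WT replicate 3. Among cell cycle regulators 10 of 29 were lower. The 2 that rose encode inhibitors of division, CDKN1B (ENSDARG00000054271) (0.35) and WEE1 (0.37). Such inhibitors did not rise as a group: of 9 tested genes whose symbol opens with CDKN, 1 was higher and 2 lower (median -0.29). The call of CDKN1B was lost without yap taz mutant replicate 2 or WT replicate 1 or 2 (adjusted p up to 0.0668) and that of WEE1 without yap taz mutant replicate 4 or WT replicate 2 or 4 (adjusted p up to 0.0945).

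Among 46 genes of neural and retinal progenitors, 16 were lower, 3 higher and 27 not called. sox19a, a SOX factor of neural progenitors, had 23.0, 20.8, 21.6 and 22.9 CPM in yap taz mutants, against 41.9, 43.8, 44.4 and 38.5 CPM in WT and a log2 fold change of -0.93 ± 0.12 (adjusted p = 4.43e-05). The exceptions were PAX2 (ENSDARG00000028148) (0.47) and both copies of SOX9, SOX9 (ENSDARG00000003293) (0.55) and SOX9 (ENSDARG00000043923) (0.29). The call of the second SOX9 copy was lost without yap taz mutant replicate 2 or 4 or WT replicate 2 or with all genes kept (adjusted p up to 0.0909). In the list of Notch signalling, which holds progenitors undifferentiated, 11 of 26 genes were lower (7 without yap taz mutant replicate 2 or replicate 3), 1 was higher and 14 were not called. The target her15.1 had a log2 fold change of -1.09 ± 0.18 and the delta ligand gene dlb of -0.56 ± 0.11, whereas the endothelial ligand gene dll4 rose (0.52 ± 0.10). Of the neuronal genes 19 of 75 were lower (12 without yap taz mutant replicate 4), a share of 25.3% beside 13.8% of all genes. tubb5, a tubulin of growing axons, fell (-0.89 ± 0.15), and STMN4 (ENSDARG00000043932), a microtubule regulator of neurons, rose (0.99 ± 0.12).

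Genes of mitochondrial energy metabolism were mostly lower or not called, and 0 of the genes in the 3 lists that follow were higher. Of the 13 protein genes of the mitochondrial genome, 12 were lower and 0 higher (median -0.47). mt-atp8, a subunit of ATP synthase, had 65.0, 53.6, 64.2 and 67.8 CPM in yap taz mutants, against 98.3, 121, 104 and 104.5 CPM in WT, a log2 fold change of -0.77 ± 0.10 (adjusted p = 2.82e-05). Nuclear genes of oxidative phosphorylation were lower in 36 of 60 cases and higher in 0 (median -0.34). atp5mc1, the ATP synthase ring subunit, had 243, 252, 249 and 232 CPM in yap taz mutants, against 365, 418, 425 and 332 CPM in WT, and NDUFS8, of complex I, had a log2 fold change of -0.46 ± 0.08. The TCA cycle had 12 of 27 genes lower (19 without WT replicate 4) and 0 higher, including all 3 named subunits of isocitrate dehydrogenase 3: IDH3A (-0.49), IDH3B (-0.69) and IDH3G (-0.44). These falls were shallow, and 0 oxidative phosphorylation gene and 0 TCA cycle genes passed the test for 1.5-fold.

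Genes of fat oxidation were mostly lower. Of 24 genes 14 were lower and 1 higher (median -0.51). CPT2, which loads acyl chains onto coenzyme A inside the mitochondrion, had 28.6, 31.8, 29.9 and 26.9 CPM in yap taz mutants, against 56.8, 58.4, 66.1 and 52.1 CPM in WT and a log2 fold change of -0.99 ± 0.13 (adjusted p = 3.85e-05). HADHA, the trifunctional protein's alpha subunit, had 89.3, 90.8, 96.5 and 95.6 CPM in yap taz mutants, against 152, 177, 166 and 135 CPM in WT. The exception was pparaa, a receptor that activates this pathway (0.64). Cytosolic ribosomal proteins, by contrast, were nearly level: 2 of 73 were higher and 1 lower (median -0.01), 4.11% called beside 27.7% of all genes. The 3 were RPS12 (0.36), rplp2 (0.28) and RPL12 (-0.22), and each call rested on single libraries. RPS12 lost its call without WT replicate 1 or 2 or yap taz mutant replicate 2 (adjusted p up to 0.0859), rplp2 without WT replicate 1 or 3 or yap taz mutant replicate 2, 3 or 4 (up to 0.116), and RPL12 in 6 of 8 fits, all but those without WT replicate 1 or 4 (up to 0.166). Nucleolar genes of ribosome biogenesis had 14 of 50 lower (22 without WT replicate 4) and 2 higher, with npm1a, nucleophosmin, the most clearly lower (-0.73 ± 0.11, adjusted p = 0.000154).

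**Figure D3:**
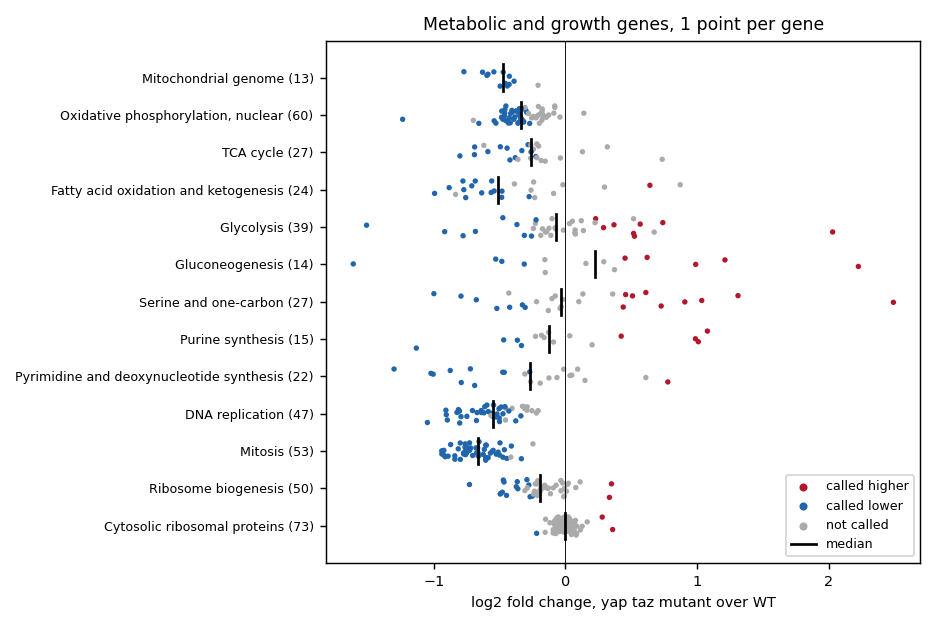
Log2 fold change of yap taz mutant over WT (horizontal axis) for every tested gene of 13 metabolic and growth lists, 1 point per gene, red for called higher, blue for called lower, grey for not called, with the list's median as a black bar. The mitochondrial, replication and mitosis lists lie left of 0 and the ribosomal proteins sit at 0, while gluconeogenesis and one-carbon genes spread to both sides.

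Genes of glucose handling did not move as a block. Glucose transporters (SLC2A and SLC5A families) had 6 of 18 genes higher and 3 lower. SLC2A1 (ENSDARG00000001437), a copy of the facilitative transporter of vessels and brain, had 1.94, 1.05, 1.33 and 2.16 CPM in yap taz mutants, against 9.34, 7.77, 7.73 and 8.98 CPM in WT, a log2 fold change of -2.37 ± 0.23 (adjusted p = 2.58e-06). Its paralogue SLC2A1 (ENSDARG00000007412) averaged 23.5 ± 5.50 CPM in yap taz mutants and 20.7 ± 4.21 CPM in WT (SD, n = 4 each) and was not called (0.18 ± 0.18, adjusted p = 0.483). SLC2A2, the liver and gut transporter (-0.96), and slc2a15b, which pigment cells use (-1.195), were the other 2 that fell. Those that rose were SLC2A6 (2.28), slc2a3b (2.21), slc2a11a (1.66), the fructose transporter gene SLC2A5 (1.31), SLC2A12 (0.96) and slc2a3a (0.27). The last of these lost its call in 5 of 8 fits without 1 library (without WT replicate 2, 3 or 4, or yap taz mutant replicate 1 or 3, adjusted p up to 0.0935).

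Glycolytic genes were split 8 higher (5 without yap taz mutant replicate 2) and 9 lower out of 39. PFKFB3, which makes the activator of phosphofructokinase, had 55.7, 88.1, 72.4 and 68.6 CPM in yap taz mutants, against 14.6, 16.1, 20.7 and 18.3 CPM in WT (2.03 ± 0.17, adjusted p = 5.91e-07) and rose, and hexokinase HK2 had a log2 fold change of 0.74 ± 0.11. LDHA, lactate dehydrogenase, had 291, 264, 282 and 262 CPM in yap taz mutants, against 440.4, 458, 462 and 406 CPM in WT and fell (-0.68 ± 0.10), as did the muscle phosphofructokinase gene PFKM (ENSDARG00000060797) (-0.92 ± 0.14). In gluconeogenesis, 5 of 14 were higher and 4 lower. PCK1, the rate-limiting enzyme that makes phosphoenolpyruvate, had 533, 681, 693 and 614 CPM in the yap taz mutant libraries, against 105.2, 125, 156 and 152 CPM in the WT libraries. Every mutant library was above every WT library (log2 fold change 2.23 ± 0.12, adjusted p = 1.46e-08). The glucose-6-phosphatase genes g6pc1a.1 (0.99) and G6PC1 (0.45), fbp1a (0.62) and creb3l3b rose with it, while FBP2, the muscle fructose bisphosphatase (-1.61), PC (ENSDARG00000051939), pyruvate carboxylase (-0.48), creb3l3a (-0.53) and pgm1 (-0.31) were lower. The call of G6PC1 was lost without yap taz mutant replicate 2 or 3 or WT replicate 1, 3 or 4 (adjusted p up to 0.0936), that of creb3l3a without yap taz mutant replicate 1, 2, 3 or 4 or WT replicate 1 or 2 or with limma-voom or with DESeq2 (adjusted p up to 0.153) and that of pgm1 without yap taz mutant replicate 1, 2 or 4 or WT replicate 2 or 3 (adjusted p up to 0.0763), so the lower count was 2 without WT replicate 2 or yap taz mutant replicate 1, 2 or 4.

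Both genes for glucagon, the hormone that raises blood glucose, were higher. GCG, a glucagon gene, had 39.4, 46.4, 28.8 and 43.7 CPM in yap taz mutants, against 8.68, 6.71, 6.73 and 6.29 CPM in WT, and gcga, the other glucagon gene, had 55.3, 71.2, 57.5 and 74.4 CPM in yap taz mutants, against 15.02, 16.5, 14.3 and 11.9 CPM in WT. Neither pair of groups overlapped, and log2 fold changes were 2.48 ± 0.16 and 2.16 ± 0.19 (adjusted p = 2.81e-08 and 8.54e-07). Insulin, ins, rose less, at 25.5 ± 3.43 CPM in yap taz mutants and 17.1 ± 2.79 CPM in WT (SD, n = 4 each; log2 fold change 0.58 ± 0.13, adjusted p = 0.00407). In the endocrine list as a whole, 9 of 35 tested genes were higher (25.7%, beside 13.9% of all genes) and 4 lower (11.4%, beside 13.8%). That lower count was 2 without WT replicate 2 or 3 or yap taz mutant replicate 1. The largest rise there was in prl, pituitary prolactin, a freshwater ion-retention hormone of fish, with 31.2, 42.6, 31.2 and 44.4 CPM in yap taz mutants, against 3.003, 2.24, 3.74 and 3.14 CPM in WT (log2 fold change 3.61 ± 0.27, adjusted p = 1.54e-07).

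Genes of purine synthesis moved both ways, and those of the joint pyrimidine and deoxynucleotide list were more often lower than higher. Purine synthesis had 4 of 15 genes higher and 4 lower (2 without WT replicate 1). Of the enzymes that build inosine monophosphate, PPAT, the committed step, PAICS and ATIC, the last step, rose. PPAT had 121, 144, 143 and 142 CPM in yap taz mutants, against 71.4, 64.1, 50.5 and 85.9 CPM in WT (log2 fold change 1.01 ± 0.16, adjusted p = 0.000176), and PAICS and ATIC had log2 fold changes of 1.08 ± 0.21 and 0.99 ± 0.19. IMPDH2, of the guanine branch, was also higher (0.42). ADSS1, the muscle form of adenylosuccinate synthase, fell most (-1.13 ± 0.20), followed by ADSS2 (-0.47), IMPDH1 (ENSDARG00000029524) (-0.37) and GMPS (-0.33). Those last 3 lost their calls without 1 library: ADSS2 and GMPS without WT replicate 1 (adjusted p = 0.0569 and 0.0507) and IMPDH1 without WT replicate 4 (adjusted p = 0.0533). In pyrimidine and deoxynucleotide synthesis 10 of 22 genes were lower and 1 higher (median -0.27). Several of the falls were in deoxynucleotide supply: RRM1, the large subunit of ribonucleotide reductase, had 69.9, 58.2, 64.3 and 68.0 CPM in yap taz mutants, against 125, 123, 119.9 and 110.3 CPM in WT (-0.88 ± 0.10, adjusted p = 1.66e-05), and TYMS, thymidylate synthase (-0.79 ± 0.12), dhfr (-1.02 ± 0.16) and RRM2 (ENSDARG00000078069) (-1.30 ± 0.24) moved with it. CAD, the multifunctional enzyme that starts pyrimidine synthesis, averaged 100.5 ± 5.58 CPM in yap taz mutants and 98.1 ± 7.197 CPM in WT (SD, n = 4 each) and was not called. UMPS, at the end of that branch, fell (-0.69 ± 0.16), and CTPS1 (ENSDARG00000098386), a CTP synthase, was the gene that rose (0.78 ± 0.12).

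The serine, glycine and one-carbon list, which feeds nucleotide synthesis, had 9 of 27 higher and 7 lower. GLDC, of the glycine cleavage system, had 180.1, 186, 204 and 234 CPM in the yap taz mutant libraries, against 32.4, 42.8, 37.9 and 30.1 CPM in the WT libraries. Every mutant library was above every WT library, with a log2 fold change of 2.49 ± 0.17 (adjusted p = 4.89e-08). BHMT, which remethylates homocysteine, averaged 3379 ± 375 CPM in yap taz mutants and 1361 ± 208 CPM in WT (SD, n = 4 each; log2 fold change 1.31 ± 0.12). In the pentose phosphate pathway TKT, transketolase, fell (-0.72 ± 0.09, adjusted p = 3.57e-05), and TALDO1 (0.42) and H6PD (0.34) rose, while PGLS fell (-0.54), a call lost without yap taz mutant replicate 2 or WT replicate 1 (adjusted p up to 0.0537). Of the amino acid genes, glutamine synthetase GLUL (ENSDARG00000100003) had 478, 524, 464 and 510.5 CPM in yap taz mutants, against 244, 255, 265 and 229 CPM in WT (0.99 ± 0.08), ARG2, a mitochondrial arginase, rose (1.93 ± 0.21) and the transporter gene SLC38A2 fell (-1.01 ± 0.08).

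Stress-response lists differed among themselves. In the immediate-early and AP-1 list, 25 of 36 tested genes were higher and 1 lower (median 0.61), beside 13.9% higher among all genes. JUNB (ENSDARG00000104773) had 183, 189.9, 211 and 183 CPM in yap taz mutants, against 26.3, 38.0, 26.9 and 25.4 CPM in WT and JUN had 194, 203, 213 and 204 CPM in yap taz mutants, against 83.4, 86.9, 83.4 and 81.1 CPM in WT. Both sets were fully separate, with log2 fold changes of 2.72 ± 0.17 and 1.28 ± 0.08 (adjusted p = 2.81e-08 and 2.81e-08). klf2a, a factor that responds to blood flow, ran the other way (-1.36 ± 0.22). The integrated stress response had 14 of 25 higher and 1 lower. ATF3, a stress transcription factor, had 64.7, 61.8, 76.9 and 75.7 CPM in yap taz mutants, against 9.23, 10.003, 10.7 and 9.99 CPM in WT (2.80 ± 0.19), CEBPB had a log2 fold change of 2.70 ± 0.20, and ppp1r15a, the phosphatase subunit that ends the response, of 1.21 ± 0.10. Of the p53 and apoptosis list 16 of 32 were higher and 2 lower. The pro-apoptotic gene bbc3 had 20.7, 24.2, 18.5 and 21.3 CPM in yap taz mutants, against 9.79, 10.27, 8.10 and 8.87 CPM in WT (1.19 ± 0.15, adjusted p = 2.64e-05) and mdm2, the p53 ligase, rose (0.92 ± 0.12), whereas cdkn1a, the p53-induced cell cycle inhibitor, was not called (-0.29 ± 0.20, adjusted p = 0.302).

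Oxygen-response genes were higher in 10 of 26 cases and lower in 0. ADM (ENSDARG00000015263), a copy of the vasodilator adrenomedullin, had 35.8, 45.2, 40.4 and 47.9 CPM in yap taz mutants, against 6.79, 6.71, 9.10 and 4.60 CPM in WT (2.64 ± 0.20, adjusted p = 1.62e-07), and IGFBP1, a binding protein that restrains insulin-like growth factor, had 99.0, 108, 107 and 100.2 CPM in yap taz mutants, against 15.5, 31.6, 16.8 and 21.7 CPM in WT (2.28 ± 0.25). Of the 30 genes of endoplasmic reticulum chaperones and the unfolded protein response, 12 were lower, 14 not called (median -0.15) and 4 higher (2 without WT replicate 1 or yap taz mutant replicate 4). CALR, calreticulin, had 109, 120.0, 102 and 88.8 CPM in yap taz mutants, against 163, 169.5, 166 and 166 CPM in WT (-0.66 ± 0.09). The 4 that rose were regulators and disposal factors rather than folding enzymes, XBP1 (0.32), atf6 (0.27), HERPUD1 (0.35) and EDEM1 (0.30). The call of atf6 was lost without yap taz mutant replicate 3 or 4 or WT replicate 1 or 3 or with all genes kept (adjusted p up to 0.108), and that of EDEM1 without yap taz mutant replicate 4 or WT replicate 1 or 4 (adjusted p up to 0.0567). Heat shock chaperones had 6 of 32 genes higher and 6 lower (3 without yap taz mutant replicate 3), and the NRF2 and redox list 7 of 26 higher and 7 lower, with medians of -0.0049 and -0.13.

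**Figure D4:**
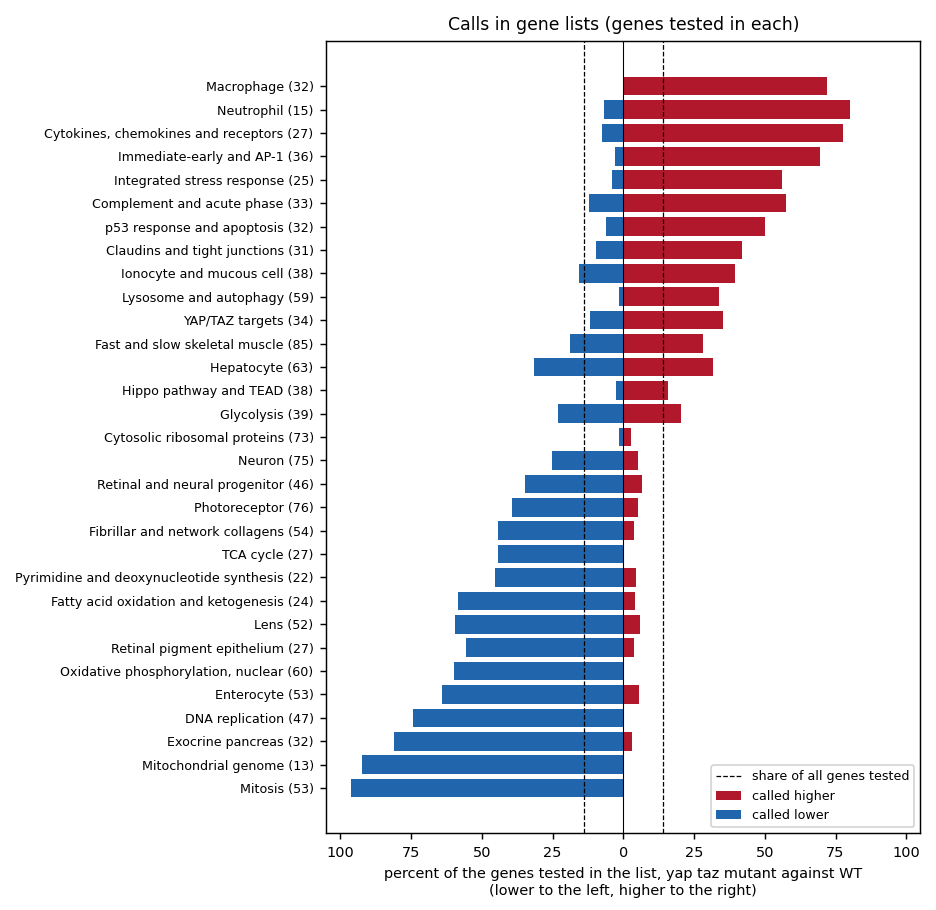
Percent of the tested genes in 31 lists that were called higher (red, to the right) or lower (blue, to the left) in yap taz mutants against WT, with the number tested in parentheses. The dashed lines mark the shares among all genes tested, 13.9% higher and 13.8% lower. The mitosis list (96.2% lower) stands farthest out to the left, and the neutrophil list (80.0% higher) farthest out to the right. The neutrophil share may lean upward, since any member near the floor in WT could pass the count filter only through mutant libraries.

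Inflammatory and myeloid genes rose broadly. Of 27 tested cytokine, chemokine and receptor genes 21 were higher and 2 lower (median 1.47). The list matched 39 genes, and those near the floor in WT, such as il11a, could pass the count filter only through mutant libraries. This share and median may therefore lean upward. il6st, the shared receptor of the interleukin 6 family, had 171, 169, 179 and 178 CPM in yap taz mutants, against 57.8, 60.3, 59.22 and 65.8 CPM in WT (1.52 ± 0.10, adjusted p = 2.83e-08). il11a, a ligand of that family, had 9.20, 7.62, 5.62 and 9.85 CPM in yap taz mutants, against 0.222, 0, 0.249 and 0.112 CPM in WT, so it was at or under 2 counts in each WT library. CXCR4 (ENSDARG00000057633), a chemokine receptor, rose (2.18 ± 0.15), while its paralogue CXCR4 (ENSDARG00000041959) (-0.89 ± 0.21) and the ligand cxcl12b (-0.29 ± 0.10) fell, the call of cxcl12b being lost without yap taz mutant replicate 1, 2 or 4 or WT replicate 2, 3 or 4 or with the 8 libraries alone (adjusted p up to 0.117). Downstream, SOCS3, the feedback inhibitor of this receptor family, had 169, 126, 133 and 159 CPM in the yap taz mutant libraries, against 16.7, 18.95, 16.7 and 16.96 CPM in the WT libraries. It had the smallest p of all genes named here, with a log2 fold change of 3.08 ± 0.14 (adjusted p = 2.03e-09). The signal transducers STAT3 (1.43 ± 0.15) and JAK1 (1.15 ± 0.09) rose as well, and 17 of 24 genes of cytokine feedback and NF-kB were higher, with 0 lower.

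Macrophage genes were higher in 23 of 32 tested cases and lower in 0 (median 1.1999). Neutrophil genes were higher in 12 of 15 and lower in 1. The lists matched 39 and 17 genes. Any member near the floor in WT could pass the count filter only through mutant libraries, so these shares and the median may lean upward. MPEG1 (ENSDARG00000055290), a macrophage perforin gene, had 25.8, 21.9, 21.0 and 27.5 CPM in yap taz mutants, against 5.67, 8.03, 8.60 and 7.19 CPM in WT (1.71 ± 0.20, adjusted p = 1.58e-05). IRF8, the transcription factor that sets the macrophage fate, had 8.95, 10.1, 7.39 and 10.7 CPM in yap taz mutants, against 1.78, 2.37, 1.37 and 1.68 CPM in WT (2.36 ± 0.24). LTA4H, of leukotriene synthesis, was the neutrophil-list gene that fell (-0.95 ± 0.18). The summed macrophage list was 1962 to 3362 CPM in yap taz mutant libraries, against 925 to 1550.4 CPM in WT libraries, and its abundant member apoeb is also expressed outside macrophages. Complement and acute phase genes, most of which the liver secretes, had 19 of 33 higher and 4 lower. The same limit of the filter holds for this list, which matched 39 genes. cfb, complement factor B, had 367, 324, 321 and 367 CPM in yap taz mutants, against 50.2, 55.1, 70.7 and 58.5 CPM in WT (2.56 ± 0.16, adjusted p = 2.52e-08). The 4 that fell were hamp, hepcidin (-1.34), serpina1l (-1.24), a2ml (-0.96) and c8g (-0.65), and hamp lost its call without yap taz mutant replicate 3 or WT replicate 2 or with limma-voom (adjusted p up to 0.0867). Lysosomal genes were higher in 20 of 59 cases and lower in 1, led by the cathepsin L gene ctsla at 2762 ± 190.3 CPM in yap taz mutants and 1143 ± 52.5 CPM in WT (SD, n = 4 each; 1.27 ± 0.09), with the cathepsin gene ctsbb as the exception (-2.56 ± 0.50).

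Textbook YAP/TAZ target genes did not fall as a group. Of 34 tested targets 12 were higher and 4 lower, with a median of 0.34. ANKRD1 (ENSDARG00000076192), an ankyrin-repeat gene often used as a readout of the pair, had 8.35, 9.20, 10.5 and 10.26 CPM in the yap taz mutant libraries, against 54.3, 65.4, 70.07 and 53.6 CPM in the WT libraries. The mutants were low in every library, with a log2 fold change of -2.67 ± 0.26 (adjusted p = 1.94e-06). The other copy, ANKRD1 (ENSDARG00000075263), averaged 10.4 ± 4.55 CPM in yap taz mutants and 7.12 ± 0.862 CPM in WT (SD, n = 4 each) and was not called (adjusted p = 0.096). TAGLN (ENSDARG00000045408), transgelin of smooth muscle (-1.08 ± 0.16), CDC42EP3 (-0.63 ± 0.11) and ccn2b (-0.37 ± 0.12) were the other 3 that fell, and ccn2b lost its call without yap taz mutant replicate 1 or WT replicate 2 or 3 (adjusted p up to 0.0757). CCN2, connective tissue growth factor, rose instead, with 191, 229, 251 and 239.7 CPM in yap taz mutants, against 100.7, 109, 103 and 94.9 CPM in WT (1.16 ± 0.11, adjusted p = 1.71e-06). amotl2b, an angiomotin that retains Yap in the cytoplasm, rose too (1.27 ± 0.13). Of the Hippo kinases, their scaffolds and the TEAD factors, 6 of 38 were higher (15.8%), near the 13.9% of all genes tested. The 1 that was lower (2.63%, beside 13.8% of all genes) was the cadherin gene dchs2 (-0.85 ± 0.15).

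Genes of smooth muscle moved both ways, and 24 of 54 collagens were lower. MYH11 (ENSDARG00000009782), smooth muscle myosin, had 21.9, 31.8, 35.04 and 26.1 CPM in the yap taz mutant libraries, against 96.6, 98.1, 93.6 and 100.2 CPM in the WT libraries. Its log2 fold change was -1.76 ± 0.12 (adjusted p = 4.22e-08). acta2, smooth muscle actin, had 49.9, 70.0, 85.3 and 52.4 CPM in yap taz mutants, against 223, 313, 272 and 202 CPM in WT (-1.97 ± 0.18), and calponin, CNN1, had a log2 fold change of -2.29 ± 0.24. Of 22 mural and smooth muscle genes 7 were lower and 5 higher (3 without WT replicate 2 or 3 or yap taz mutant replicate 2 or 3), with a median of 0.11. The elastic matrix gene elnb had 4.24, 4.47, 7.39 and 3.24 CPM in yap taz mutants, against 24.1, 24.9, 20.7 and 18.8 CPM in WT (-2.203 ± 0.19, adjusted p = 8.02e-07). Collagens were lower in 24 of 54 cases and higher in 2, COL12A1 (ENSDARG00000078322) (0.40) and col23a1a (0.82). Both named chains of beaded-filament collagen VI fell: col6a1 had 175, 159.7, 194 and 164 CPM in yap taz mutants, against 291, 307, 305 and 341 CPM in WT (-0.85 ± 0.08), and COL6A2 had a log2 fold change of -0.70 ± 0.08.

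Other matrix genes were divided, with 19 of 87 glycoprotein and proteoglycan genes higher and 23 lower. vcanb, a versican, had 52.2, 46.1, 55.0 and 46.4 CPM in yap taz mutants, against 123, 96.2, 122 and 135 CPM in WT (-1.26 ± 0.11). THBS1 (ENSDARG00000103775), a thrombospondin, had 97.3, 107, 135 and 151 CPM in yap taz mutants, against 24.9, 30.0, 19.6 and 31.9 CPM in WT (2.202 ± 0.22, adjusted p = 3.26e-06). Proteases and their inhibitors were more often higher than lower, 17 of 54 against 4 lower, and the inhibitor gene TIMP2 (ENSDARG00000075261) (3.03 ± 0.25) rose beside MMP9 and mmp13a. In the fin fold and tendon list 11 of 35 were lower and 5 higher (3 without yap taz mutant replicate 2). The actinodin genes and2 (-0.80 ± 0.10) and and3 (-1.03 ± 0.14), which build the fibres that stiffen the larval fin, fell, as did TNMD, a tendon gene (-0.89 ± 0.12).

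Epithelial junction genes were more often higher. Of 31 listed claudin and tight junction genes 13 were higher (41.9%) and 3 lower (9.68%), beside 13.9% and 13.8% of all genes. Grouped by symbol alone, 24 tested claudins had 10 higher (41.7%) and 5 lower (20.8%). The list therefore leaves out claudins that fell. CLDN5 (ENSDARG00000014059), a claudin of vessel walls, had 65.5, 66.2, 67.4 and 66.0 CPM in yap taz mutants, against 19.7, 24.5, 21.1 and 22.7 CPM in WT (1.59 ± 0.10, adjusted p = 2.55e-08). The 3 of the list that fell included 2 of the gut, cldn15la (-1.24) and cldn15b (-0.64), beside CLDN11 (ENSDARG00000030723) (-0.45). E-cadherin, cdh1, had 154, 160.1, 159 and 164 CPM in yap taz mutants, against 63.9, 74.2, 84.0 and 86.9 CPM in WT (1.04 ± 0.11). Epidermal markers as a list moved both ways, 15 of 52 higher and 13 lower, from ANXA2, an annexin (1.76 ± 0.22), to tgm1l3, a transglutaminase of the cell envelope (-3.32 ± 0.48). Motile cilia genes were higher in 10 of 44 cases (22.7%, beside 13.9% of all genes) and lower in 1. FOXJ1, their transcription factor, had 18.5, 21.6, 17.9 and 28.2 CPM in yap taz mutants, against 6.90, 5.79, 6.73 and 6.51 CPM in WT (1.73 ± 0.17).

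The joint list of ion-transporting skin cells and mucous cells showed a mixed pattern, with 15 of 38 genes higher and 6 lower. slc12a10.3, a sodium and chloride co-transporter gene, had 12.2, 11.04, 9.17 and 12.15 CPM in yap taz mutants, against 2.11, 2.24, 2.12 and 2.47 CPM in WT (2.31 ± 0.20, adjusted p = 7.68e-07). The sodium pump gene atp1a1a.5 also rose (1.95 ± 0.17), and the bicarbonate transporter genes SLC4A4 (ENSDARG00000013730) (-0.99 ± 0.10) and SLC4A1 (ENSDARG00000012881) (-1.31 ± 0.15) fell. SLC4A1 also encodes the anion exchanger of red cells. Of 29 erythrocyte genes, 8 were lower, 3 higher and 18 not called. The summed levels of the erythrocyte list overlapped between yap taz mutant and WT libraries. Genes of hatching enzymes, which dissolve the egg envelope at hatching, were higher in the mutants. he1.1 had 4.24, 23.5, 22.9 and 13.2 CPM in yap taz mutants, against 0.556, 0, 2.24 and 1.24 CPM in WT (adjusted p = 0.000199). he1.2 had 3.27, 9.20, 6.95 and 4.05 CPM in yap taz mutants, against 0, 0, 0.499 and 0.112 CPM in WT. No fold is given against such low WT levels. All mutant values were above all WT values, but they varied several-fold among mutant libraries and these 2 genes are close copies. Of 11 tested hatching gland genes, 5 were higher and 0 lower. he1.1 and he1.2 could pass the count filter only through mutant libraries, so they were tested only because they were high there.

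Skeletal muscle genes were more often higher than lower, 24 of 85 (28.2%) against 16 lower (18.8%), with a median of 0.10. Both shares were above those of all genes, 13.9% and 13.8%. ckma, a creatine kinase gene that buffers ATP in muscle, averaged 8782 ± 1086 CPM in yap taz mutants and 3907 ± 303 CPM in WT (SD, n = 4 each; log2 fold change 1.17 ± 0.10). Its paralogue ckmb averaged 7871 ± 923 CPM in yap taz mutants and 4011 ± 324 CPM in WT (SD, n = 4 each; log2 fold change 0.97 ± 0.10). tcap, a Z-disc stretch-sensing gene, rose (1.81 ± 0.22), and the slow-fibre gene MYBPC1 fell (-1.67 ± 0.20). The heart list was lower in 9 of 27 cases and higher in 3: the myosin light chain gene MYL7 had 10.8, 15.5, 13.2 and 18.2 CPM in yap taz mutants, against 30.6, 33.7, 35.04 and 28.4 CPM in WT (-1.15 ± 0.15, adjusted p = 2.86e-05), while the natriuretic peptide genes nppb (1.28) and nppal (0.62) and gata4 (1.01) rose, the call of nppal being lost without yap taz mutant replicate 2 (adjusted p up to 0.0515). In vessels 11 of 46 endothelial genes were higher (23.9%, beside 13.9% of all genes) and 5 lower (10.9%, beside 13.8%). The lower count was 3 without WT replicate 2 or 4 or yap taz mutant replicate 3 or 4. lyve1a, a lymphatic and venous hyaluronan receptor gene, had 20.45, 32.5, 21.0 and 25.2 CPM in yap taz mutants, against 3.34, 5.79, 4.61 and 5.95 CPM in WT (2.33 ± 0.20). Among signalling lists, FGF had 8 of 35 genes higher (22.9%) and 0 lower, and BMP and TGF-beta 11 of 58 higher (19%) and 3 lower (5.17%). Wnt had 5 of 59 higher (8.47%) and 7 lower (11.9%), both shares below those of all genes (13.9% and 13.8%). The higher Wnt count was 1 or 2 without WT replicate 1 or 2 or yap taz mutant replicate 1, 2 or 4. The Wnt receptor gene FZD10 fell (-0.79 ± 0.10) and SMAD1, a BMP effector, rose (0.79 ± 0.07, adjusted p = 6.45e-07).

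The direct test of yap taz mutants against yap mutants called 814 genes (4.18%), 374 higher (1.92%) and 440 lower (2.26%) in yap taz mutants, and 22 against a minimum change of 1.5-fold. The count depended on single libraries, falling to 441 without yap taz mutant replicate 2, 497 without yap taz mutant replicate 4, 468 without yap mutant replicate 2 and 538 without yap mutant replicate 3. By list, the yap taz mutants were lower than yap mutants in 14 of 52 lens genes, 9 of 27 pigment epithelium genes, 9 of 20 melanophore genes and 8 of 54 collagens. They were also lower in 7 of 32 pancreas genes and 6 of 22 mural genes, with 0 higher in these 6 lists together. They were higher in 10 of 36 AP-1 genes (1 lower), 8 of 32 macrophage genes (0 lower) and 7 of 27 cytokine genes (0 lower), beside 1.92% of all genes. Members near the floor in the other genotypes could pass the count filter only through yap taz mutant libraries, so these shares may lean upward. Mitosis had 2 of 53 genes lower, beside 2.26% of all genes, with a median log2 fold change of -0.24 against yap mutants. The mitochondrial genome had 4 of 13 lower (median -0.31), and nuclear oxidative phosphorylation had 0 of 60 called (median -0.12).

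Several named genes took an order over the 3 genotypes. PCK1 averaged 630.4 ± 73.5 CPM in yap taz mutants, 335 ± 32.9 CPM in yap mutants and 135 ± 23.9 CPM in WT (SD, n = 4 each), and yap taz mutants exceeded yap mutants by a log2 fold change of 0.91 ± 0.12 (adjusted p = 0.000783). MYH11 averaged 28.7 ± 5.86 CPM in yap taz mutants, 71.5 ± 6.27 CPM in yap mutants and 97.1 ± 2.74 CPM in WT, which put yap taz mutants -1.32 ± 0.12 from yap mutants on the log2 scale (adjusted p = 3.91e-05). ANKRD1 averaged 9.58 ± 0.993 CPM in yap taz mutants, 36.6 ± 16.6 CPM in yap mutants and 60.8 ± 8.21 CPM in WT (-1.94 ± 0.26, adjusted p = 0.000901). Other genes stood near the WT level in yap mutants. The co-transporter gene slc12a10.3 averaged 11.14 ± 1.43 CPM in yap taz mutants, 2.43 ± 0.821 CPM in yap mutants and 2.24 ± 0.167 CPM in WT, a log2 fold change of 2.19 ± 0.20 over yap mutants (adjusted p = 5.2e-05), and he1.1 averaged 15.98 ± 9.14 CPM in yap taz mutants, 0.217 ± 0.435 CPM in yap mutants and 1.01 ± 0.966 CPM in WT (adjusted p = 0.000842). At these levels he1.1 could pass the count filter only through yap taz mutant libraries, so it was tested only because it was high there. SLC4A4 averaged 58.2 ± 7.32 CPM in yap taz mutants, 105.5 ± 13.3 CPM in yap mutants and 116 ± 3.76 CPM in WT (-0.86 ± 0.10, adjusted p = 0.000296), and rbp4l averaged 191 ± 29.5 CPM in yap taz mutants, 87.2 ± 5.23 CPM in yap mutants and 90.4 ± 10.4 CPM in WT (1.13 ± 0.11, adjusted p = 5.73e-05).

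**Figure D5:**
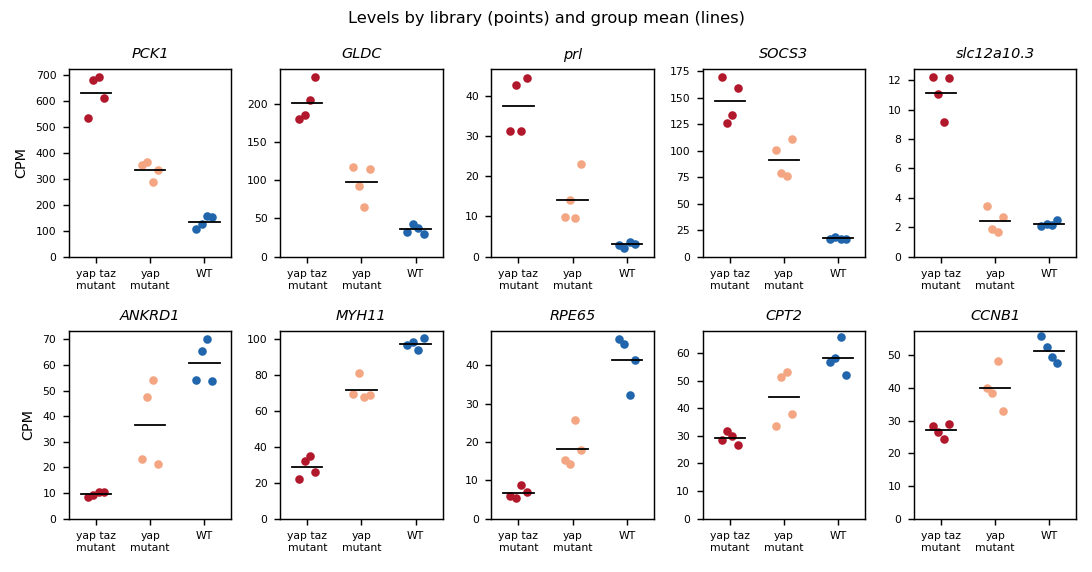
CPM (vertical axes, from 0) of 10 named genes in every library of the yap taz mutants, the yap mutants and WT, with a line at each group's mean. PCK1, GLDC, prl, SOCS3 and slc12a10.3 were higher in all 4 yap taz mutant libraries than in all 4 WT libraries, and ANKRD1, MYH11, RPE65, CPT2 and CCNB1 were lower.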

How the data were processed

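PolyA RNA of whole larvae was sequenced in 12 libraries. The authors deposited whole-number read counts per Ensembl gene, with STAR 2.3.0e and HTSeq 0.6.0 named in the submitters' processing notes. The sources used here state no genome build, annotation or strandedness, so overlapping and near-identical genes may share reads. Symbols come from a gene name table, and those in capitals can cover several paralogues, which are then told apart by Ensembl ID.

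Genes were kept by edgeR's filterByExpr (minimum count 10, minimum total 15), scaled by TMM and tested with the quasi-likelihood test of edgeR 4.0.16 in R 4.3.3, two-sided. A gene high in 1 genotype alone could pass this filter through that genotype's 4 libraries. A single fit over all 12 libraries had 1 coefficient per genotype. Adjusted p-values are Benjamini-Hochberg over 19493 genes, the threshold was 0.05, and SE is the absolute log2 fold change over the root of F. CPM use TMM library sizes. The procedure was run on simulated counts with 200 changed genes, far fewer than were called here. That run therefore does not vouch for the scaling or the rate of false calls in these data. Precision is set by 4 libraries a group and by depth: 3 counts correspond to 0.334 to 0.443 CPM.

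The comparison and the 84 gene lists (2782 genes) were chosen with earlier results of these data known. Lists are described by counts and medians beside all genes tested, with no set test. Named genes are the 12 largest and 12 smallest non-overlapping changes with mean log2 CPM of at least 1, up to 4 called members per list by p, and genes of glucose transport and nucleotide synthesis. Other members named, such as those that ran against their list and CYP7A1, fabp10a, ins, mdm2 and cdkn1a, were chosen after their values were seen. Alternatives were other scalings and filters, the 8 libraries alone, a replicate block, limma 3.58.1 (voom), DESeq2 1.42.0, a minimum fold of 1.5 and leaving out each library. A search of promoter sequences was not made here, and a few genes that the rule names are not reported here.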

Additional observations from a re-analysis of the deposited data

Results flagged for a closer look

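Each named gene was looked at in the 4 yap taz mutant and the 4 WT libraries for a library far from the other 3, by Dixon's ratio at its 95% critical value. Of 428 groups of 4, 21 were flagged, and chance flags about 1 in 20. Yap taz mutant replicate 1 stood below the other 3 of its group for PPAT 121 CPM beside 142 to 144. Yap taz mutant replicate 2 stood above the other 3 of its group for ctsla 3046 CPM beside 2640.3 to 2684, cldn15la 36.7 CPM beside 25.8 to 27.5 and ppp1r15a 114 CPM beside 91.2 to 92.0. Yap taz mutant replicate 2 stood below the other 3 of its group for MIP (ENSDARG00000037285) 39.7 CPM beside 61.4 to 63.3. Yap taz mutant replicate 3 stood above the other 3 of its group for slc2a15b 3.99 CPM beside 3.27 to 3.37 and her15.1 5.17 CPM beside 3.94 to 4.05. Yap taz mutant replicate 3 stood below the other 3 of its group for ANXA2 241 CPM beside 409.5 to 430.1 and slc2a3b 6.21 CPM beside 10.4 to 11.07. Yap taz mutant replicate 4 stood above the other 3 of its group for WEE1 34.01 CPM beside 25.3 to 25.5. WT replicate 1 stood above the other 3 of its group for STAT3 30.9 CPM beside 26.2 to 26.6. WT replicate 1 stood below the other 3 of its group for MIP (ENSDARG00000037285) 124 CPM beside 152 to 153. WT replicate 2 stood above the other 3 of its group for tcap 30.4 CPM beside 11.9 to 14.5, G6PC1 229 CPM beside 143 to 151, SOCS3 18.95 CPM beside 16.7 to 16.96 and JUNB (ENSDARG00000104773) 38.0 CPM beside 25.4 to 26.9. WT replicate 4 stood above the other 3 of its group for PAX2 (ENSDARG00000028148) 34.1 CPM beside 30.1 to 30.7. WT replicate 4 stood below the other 3 of its group for PDE6B (ENSDARG00000000380) 13.8 CPM beside 17.3 to 18.03, GNAT1 68.5 CPM beside 104.7 to 106, rbp4l 74.9 CPM beside 93.6 to 97.2 and her15.1 7.41 CPM beside 9.48 to 9.90.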

How the results depend on the processing

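The 5391 calls between yap taz mutants and WT became 5416 with DESeq2 size factors, 5472 with upper-quartile scaling, 5405 without a filter, 5433 with a stricter filter, 5501 with the 8 libraries alone, 5303 with limma-voom, 5169 with DESeq2 and 4452 to 5498 without 1 library. A minimum fold of 1.5 left 999 (591 higher, 408 lower), and against yap mutants 22 (11 higher, 11 lower) by the alternative's own stricter question. Calls against yap mutants ranged from 441 to 1087 without 1 library, 194 to 497 higher and 247 to 590 lower. Same-numbered yap taz mutant and WT libraries did not deviate together in every pair (correlations 0.166, 0.103, 0.0717 and -0.0048). Each number correlated best with its own only for replicates 1 and 3. The titles do not say that numbers pair libraries, and the main fit did not take them as pairs. These correlations left out the yap mutants. On the second principal component, replicates 1 and 4 scored above replicates 2 and 3 in every genotype, an order that the main fit does not account for. With the replicate block, calls were 6123 against WT and 1443 against yap mutants (645 higher, 798 lower). The cause was not tested. Of 214 genes named, 134 kept their call and direction under every alternative, and the minimum fold removed 78 calls. CAD, not called, changed sign without WT replicate 3 or yap taz mutant replicate 4 and ran from -0.0142 to 0.0675 on the log2 scale. The minimum fold moved 143 of 168 list counts by over 1.5 times, and DESeq2 size factors moved 0. Of the other scalings, upper-quartile scaling took the median of all genes to -0.0142 and that of Hedgehog signalling to -0.0008, against 0.008 and 0.0218. Over all alternatives, 13 of 84 list medians changed sign under at least 1, Cholesterol synthesis reaching the farthest across 0 (0.0782, against -0.1417). At this depth, genes under about 0.443 CPM could not be told from 0 in single libraries.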

Other observations

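Genes were also grouped by the opening letters of their symbol alone, without the lists. Among 352 families of at least 8 tested genes, the highest shares of higher calls were in the four-helix membrane genes (ms4a; 9 higher and 0 lower of 11), the CCN matricellular genes (5 higher and 1 lower of 8), the CXCL chemokines (5 higher and 1 lower of 8), the TNF receptor superfamily (5 higher and 0 lower of 8), the membrane serine proteases (TMPRSS; 5 higher and 1 lower of 9) and the ATF factors (6 higher and 1 lower of 11). The highest shares of lower calls were in symbols that open with MT, mostly genes of the mitochondrial genome (0 higher and 12 lower of 14). Next came the Hairy-related genes (her, 0 higher and 8 lower of 10) and the replicative helicase family (MCM, 0 higher and 8 lower of 11). After them came the gamma-M crystallins (crygm, 1 higher and 15 lower of 21) and the retinol binding proteins (RBP, 1 higher and 6 lower of 9). The fatty acid binding proteins followed (FABP, 0 higher and 7 lower of 11). Mitochondrial ribosomal proteins of the large subunit (MRPL) had 0 higher and 24 lower of 46, and those of the small subunit (MRPS) 0 higher and 12 lower of 27, unlike the cytosolic ribosomal proteins. Among all genes tested, 13.9% were higher and 13.8% lower. Families of 8 or 9 genes can reach a high share with few calls. Only tested genes were counted, and members near the floor in WT could pass the count filter only through mutant libraries. The shares of higher calls may therefore lean upward. Opening letters do not make a family in every case, and no test was run on these families.

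The WT libraries differed among themselves along the second principal component (10.95% of the variance). WT replicates 1 and 4 scored 10.6 and 20.51 there, and WT replicates 2 and 3 scored -16.1 and -21.1. The same order by number held in the mutants. Replicates 1 and 4 scored 24.3 and 23.1 in yap mutants, against 5.50 and -3.29 for replicates 2 and 3. In yap taz mutants these scores were -2.11 and -8.31, against -19.1 and -14.0. The cause of this order was not tested. Pancreatic enzymes divided the WT libraries in the same way, with amy2a at 23.5 and 27.7 CPM in replicates 1 and 4 and 71.6 and 68.2 CPM in replicates 2 and 3. The yap taz mutants lay at 1.09 to 3.24 CPM.

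By gene order in the RefSeq table of assembly GRCz12tu, which was used for order only, 40% of the 100 tested genes nearest to YAP1 were called against WT, beside 29.1% of the other 347 on its chromosome and 28.5% of all 13714 genes placed. Near WWTR1 the share was 31.5% of 73 against 29.3% of the other 392. That window was uneven, with 50 genes on 1 side and 23 on the other, where the placed genes end. Against yap mutants the share called was 9.59% of those 73, beside 4.34% of the rest of that chromosome and 4.02% of all genes placed. In a window of 73 genes, that share rests on few calls. Whether linked variation differs between the genotypes was not tested.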
